A study of Mus musculus with 6 samples.

Results

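Kinesin-1, the motor that carries cargo along microtubules toward their plus ends, was followed through 6 of its genes. These were the heavy chain genes Kif5a, Kif5b and Kif5c and the light chain genes Klc1, Klc2 and Klc4. Every probe set that the platform annotation gives to exactly 1 gene, among these 6, was used, and probe sets given to several genes were left out. That rule took 18 of the 45101 probe sets on the array by annotation: 3 for Kif5a, 6 for Kif5b, 4 for Kif5c, 3 for Klc1 and 2 for Klc4. The genes themselves were chosen with earlier results of these data known. Klc2 had 0 probe sets of its own in the annotation used and was not analysed here. The RNA came from the mouse neuroblastoma line CAD, whose cells resemble catecholaminergic neurons. One group was transfected with the plasmid RIPmiR-124a-2, which expresses the microRNA precursor miR-124a-2, and the other with the empty RI vector, with 3 biological replicates in each group. Both groups were therefore plasmid-transfected cells of 1 line grown in the same kind of serum-containing medium, and the labels give neither the time after transfection nor the share of cells that took up plasmid.

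A kinesin-1 motor is a pair of heavy chains, which hold the motor domain and walk on the microtubule, usually joined by a pair of light chains that bind cargo and hold the idle motor in check. Kif5b is made in most tissues, whereas Kif5a and Kif5c are enriched in neurons, where kinesin-1 moves vesicles, mitochondria and other freight down the axon. miR-124 is a microRNA abundant in the brain that lowers many transcripts of non-neuronal cells, among them the splicing repressor gene Ptbp1.

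Values are RMA log2 signals, so a difference of 1 is a doubling, and the signals of different probe sets cannot be set against each other as amounts of RNA. The 6 arrays had medians of 4.72 to 4.83, and 3 of the 18 probe sets had means no higher than the highest signal (3.70) of the controls for a bacterial RNA left out of the spike-in mix. These were 1 each of Kif5a, Kif5b and Kif5c, and they are called dim here. In empty vector replicate 1 and plasmid replicates 1 and 2 the interquartile range of the signals was 3.06 to 3.10, and these are called narrow arrays, while the remaining arrays had 3.26 to 3.35 and are called wide. The 3′ over 5′ log2 ratio of the transferrin receptor controls, a sign of RNA or labelling quality, was 1.55 and 1.34 in the replicate 1 arrays of the plasmid and empty vector groups, and 0.95 to 1.09 in the other 4. Of 8 markers of catecholaminergic neurons, 7 were brighter than those bacterial controls, with the neurofilament gene Nefl not above them. Their mean log2 signal, from the brightest probe set of each gene, was 8.56 to 8.67 in plasmid arrays and 8.23 to 8.34 in empty vector arrays. In those probe sets 8 of 8 means were higher with the plasmid, as were 54.2% of all genes. None of the 8 passed the test (limma), and 5 were higher at an unadjusted p under 0.05, against 5.13% of all genes. Ddc and Snap25 each had 1 of 2 probe sets of the opposite sign, and Syt1 had 1 of 4. Of 15 measured markers of fibroblasts, glia, macrophages and endothelium, 13 were also brighter than those bacterial controls. That count therefore does not tell the cell types apart. The mean of the 15 was 4.44 to 4.71 in plasmid arrays and 4.50 to 4.61 in empty vector arrays. The part of these differences in the results below was not tested except where values within narrow and wide arrays are given. Ptbp1, read as a sign that the microRNA acted, fell by 1.24 in its brightest probe set (SE 0.12, adjusted p = 0.018), while its other two probe sets had -0.27 and 0.07 and did not pass.

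With miR-124a-2, 1 of 3 probe sets of Kif5a and 1 of 3 of Klc1 rose about 2-fold, and the other 16 of the 18 kinesin-1 probe sets did not pass (limma, Benjamini-Hochberg adjusted p under 0.05 over all 45101 probe sets). Thus 2 of 18 were called, against 0.268% of all probe sets, and both were higher, against 0.0599% of all probe sets. By their means, 11 of the 18 were higher with the plasmid and 7 lower, and 50.7% of all probe sets were higher. All 6 probe sets of Kif5b had lower means, all 4 of Kif5c had higher means, and neither gene had a call. The 2 groups did not overlap in 5 of the 18, each of them higher with the plasmid. Over all probe sets, groups did not overlap in 13.2%, and did so with a higher plasmid group in 6.27%. The median log2 fold change was 0.13 over the 18 probe sets and 0.00 over all.

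**Figure D1:**
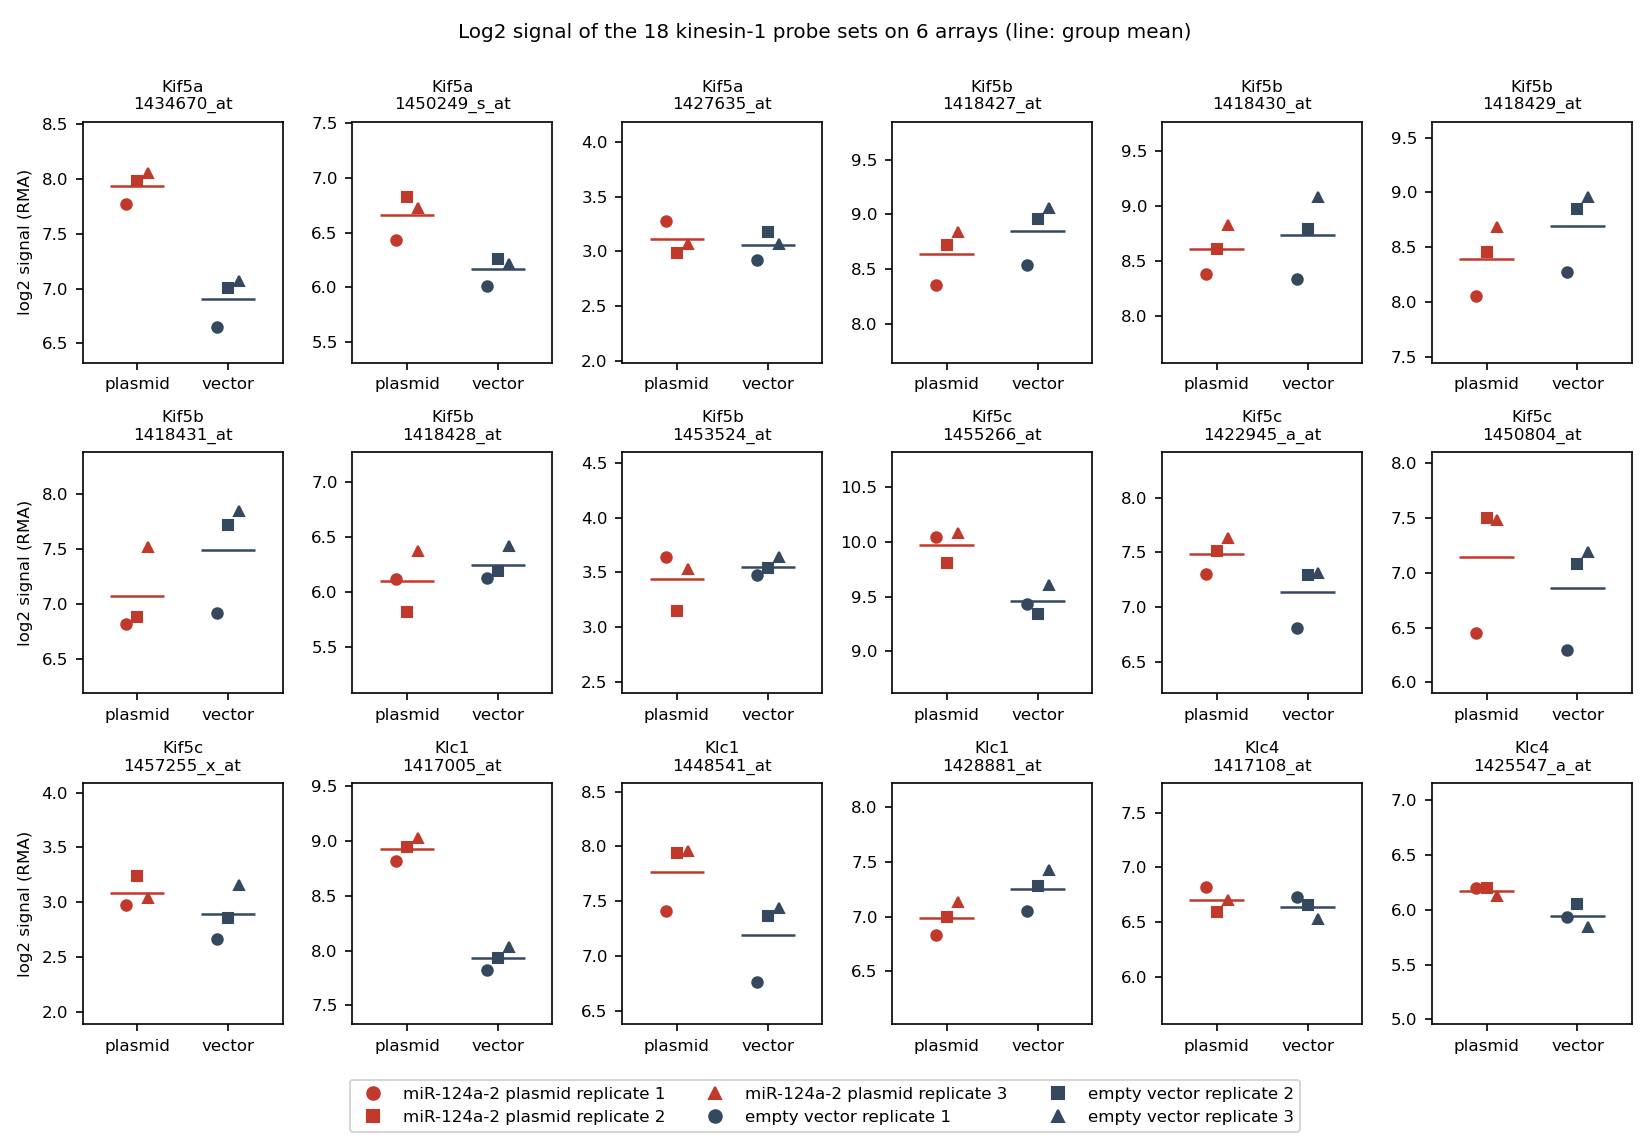
Each panel plots the log2 signal of 1 kinesin-1 probe set on the 6 arrays, with the 3 miR-124a-2 plasmid arrays in red on the left and the 3 empty vector arrays in blue on the right, markers for replicate numbers and lines for group means. All panels span the same height. Kif5a 1434670_at and Klc1 1417005_at show plasmid arrays about 1 unit above the empty vector arrays, while the Kif5b panels show plasmid means 0.11 to 0.42 below.

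Among the heavy chains, Kif5a had higher means with the plasmid in both probe sets that stood above the dim range. Probe set 1434670_at had log2 signals of 7.77, 7.98 and 8.05 in the plasmid arrays, against 6.65, 7.00 and 7.07 in the empty vector arrays. The lowest plasmid array lay 0.70 above the highest empty vector array. The log2 fold change was 1.03 (SE 0.14, 95% interval 0.71 to 1.35), which is 2.04-fold (adjusted p = 0.0371). With each array centred on its median the log2 fold change was again 1.03 but did not pass (adjusted p = 0.0783). Among narrow arrays alone it was 1.23, and among wide arrays alone 1.02. A narrow value rests on a single empty vector array and a wide value on a single plasmid array.

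Another Kif5a probe set, 1450249_s_at, read 6.43, 6.82 and 6.73 in plasmid arrays and 6.02, 6.26 and 6.22 in empty vector arrays. These groups did not overlap either, but the log2 fold change of 0.50 (SE 0.13) did not pass (adjusted p = 0.242). Affymetrix gives the ending _s_at to probe sets whose probes can match transcripts of more than 1 gene, so this signal may not come from Kif5a alone. The dim probe set 1427635_at read 2.98 to 3.28 in plasmid arrays and 2.92 to 3.18 in empty vector arrays, near the level of the bacterial controls in both.

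Kif5b, the heavy chain of most cell types, had lower means with the plasmid in each of its probe sets, with log2 fold changes of -0.42 to -0.11 and no call (adjusted p from 0.807 to 0.949). Its brightest probe set, 1418427_at, read 8.36, 8.72 and 8.84 in plasmid arrays, against 8.54, 8.96 and 9.06 in empty vector arrays. The groups overlapped, as they did in all 6 Kif5b probe sets, and the log2 fold change of -0.21 had a 95% interval of -0.61 to 0.19. The largest difference was in 1418431_at, with 6.82, 6.88 and 7.52 in plasmid arrays and 6.92, 7.72 and 7.85 in empty vector arrays (log2 fold change -0.42, SE 0.27). Within groups, Kif5b differed by up to 0.93 between arrays there, which is more than the group means differed. With single arrays left out the value ran from -0.71 to -0.25 in 1418431_at and from -0.37 to -0.07 in 1418427_at. Both were farthest from 0 without empty vector replicate 1, and the values nearest to 0 came without empty vector replicate 3 in 1418431_at and without plasmid replicate 1 in 1418427_at. The lower means were not seen in each array set: 1418427_at had 0.0030 and 1418430_at 0.16 among narrow arrays, and 1418428_at had 0.07 among wide arrays. Between same-numbered arrays, plasmid minus empty vector was -0.18, -0.24 and -0.22 in 1418427_at and -0.22, -0.39 and -0.27 in 1418429_at. This difference was above 0 only in replicate 1 of 1418430_at (0.05) and of dim 1453524_at (0.17). With the replicate number as a block in limma, no Kif5b probe set passed (adjusted p from 0.189 to 0.760). With the array set as a block, 1418431_at had -0.17, 1418427_at -0.08 and 1418430_at 0.026. Of the 6 probe sets, 5 share 1 source record in the annotation, so they are not separate measurements of different transcripts.

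Kif5c, the other heavy chain enriched in neurons, had higher means with the plasmid in each of its 4 probe sets. The log2 fold changes were 0.19 to 0.51, and none passed without a block. Probe set 1455266_at read 10.04, 9.80 and 10.08 in plasmid arrays, against 9.43, 9.34 and 9.61 in empty vector arrays. The groups were 0.19 apart at their nearest arrays, and the log2 fold change of 0.51 (SE 0.12, 95% interval 0.24 to 0.78, adjusted p = 0.169) did not pass over all probe sets. Within the narrow and wide arrays it was 0.49 and 0.60. With the replicate number as a block in limma this probe set passed (adjusted p = 0.0457), as did 1.49% of all probe sets. With the array set as a block it did not pass (adjusted p = 0.078).

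The other Kif5c probe sets overlapped between groups and did not pass with either block. Of them, 1422945_a_at and 1450804_at come from the same source record, so they are not separate measurements of different transcripts. Probe set 1422945_a_at read 7.31, 7.52 and 7.63 in plasmid arrays and 6.81, 7.30 and 7.31 in empty vector arrays, so the lowest plasmid array lay between the upper 2 empty vector arrays. Probe set 1450804_at spread most, with 6.45, 7.50 and 7.48 in plasmid arrays and 6.30, 7.08 and 7.19 in empty vector arrays. In both groups its replicate 1 array was the low one, by 0.78 or more. The dim 1457255_x_at read 2.97 to 3.24 in plasmid arrays and 2.66 to 3.15 in empty vector arrays.

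**Figure D2:**
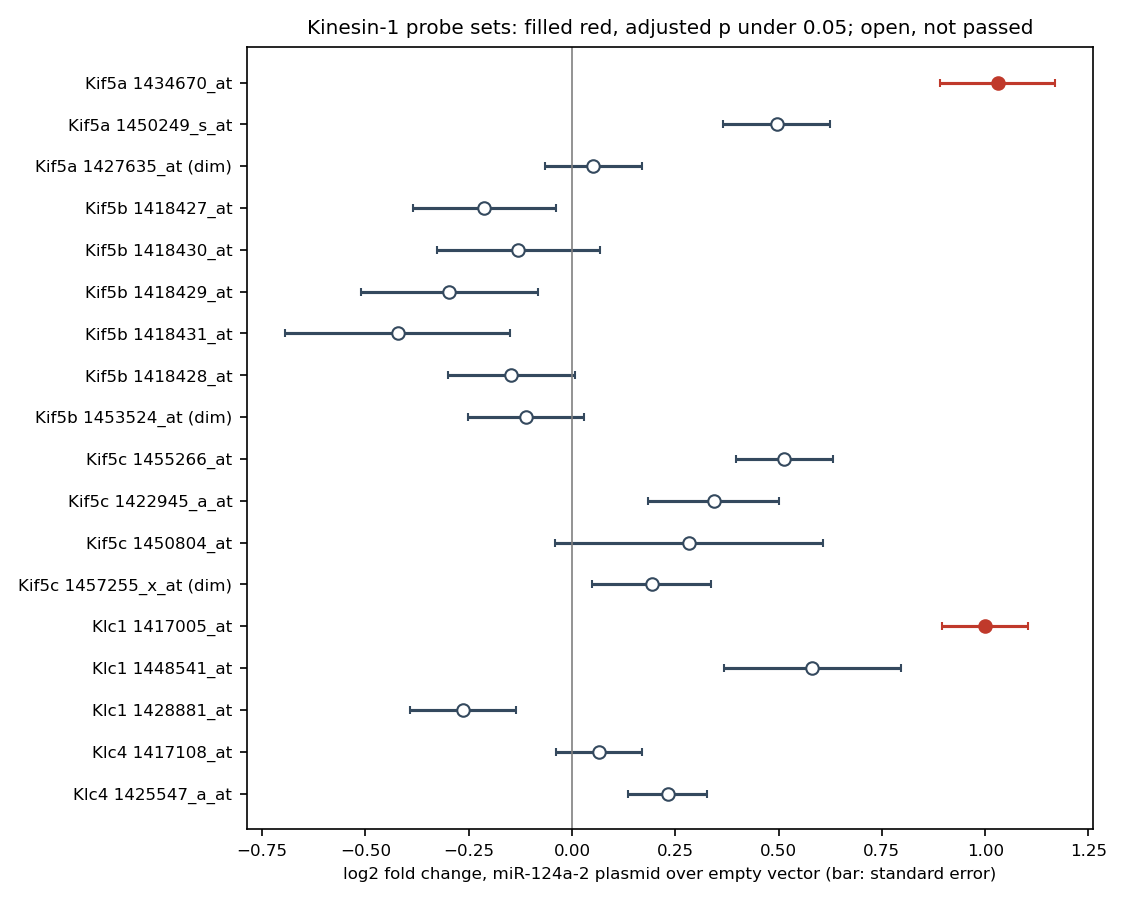
Points give the log2 fold change of miR-124a-2 plasmid over empty vector for each kinesin-1 probe set (horizontal axis), and bars its standard error. The 2 filled red points, Kif5a 1434670_at at 1.03 and Klc1 1417005_at at 1.00, passed at an adjusted p under 0.05, and the 16 open points did not.

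Among the light chains, Klc1, the main light chain of neurons, gave different answers by probe set. In 1417005_at the log2 signals were 8.81, 8.95 and 9.03 in plasmid arrays, against 7.83, 7.94 and 8.03 in empty vector arrays. The plasmid arrays spanned 0.22 and the empty vector arrays 0.20, and the groups were 0.78 apart at their nearest arrays. The log2 fold change was 1.00 (SE 0.10, 95% interval 0.76 to 1.24), or 2.0-fold (adjusted p = 0.0195), and it was 1.05 within both the narrow and the wide arrays.

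Probe set 1448541_at of Klc1, drawn from the same source record as 1417005_at, read 7.41, 7.94 and 7.96 in plasmid arrays and 6.76, 7.37 and 7.44 in empty vector arrays. Plasmid replicate 1 lay within the empty vector range, and the log2 fold change of 0.58 (SE 0.21) did not pass (adjusted p = 0.485). The remaining one, 1428881_at, comes from a different record and read 6.84, 6.99 and 7.13 in plasmid arrays, against 7.05, 7.28 and 7.42 in empty vector arrays. This log2 fold change of -0.26 (SE 0.13) did not pass (adjusted p = 0.685). The gene has many annotated transcripts that differ at their 3′ ends, and where the probes of each set lie on them was not analysed here.

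The gap between Klc1 1417005_at and 1428881_at (in that order, as a difference) was 1.98, 1.95 and 1.90 in plasmid arrays, against 0.77, 0.66 and 0.61 in empty vector arrays. Within a group it varied by at most 0.17, and between groups its mean differed by 1.26. This pair was taken as the highest and lowest fold change of the gene, so the gap is a description without a test. The same gap between extreme probe sets, dim ones left out, differed by 0.53 for Kif5a, 0.29 for Kif5b, 0.23 for Kif5c and 0.17 for Klc4.

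Klc4, a light chain of broad expression, had no call. Probe set 1425547_a_at read 6.20, 6.19 and 6.13 in plasmid arrays and 5.93, 6.05 and 5.84 in empty vector arrays. These values did not overlap, but the log2 fold change was 0.23 (SE 0.10, adjusted p = 0.573). Probe set 1417108_at read 6.82, 6.59 and 6.70 in plasmid arrays, against 6.73, 6.65 and 6.53 in empty vector arrays, with overlap and a log2 fold change of 0.07 (95% interval -0.17 to 0.31).

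Both calls depended on which arrays were used, as did those over all probe sets. Kif5a 1434670_at and Klc1 1417005_at kept log2 fold changes of 0.90 to 1.11 and 0.95 to 1.06 when any single array was left out. They passed without plasmid replicate 3 and did not pass without plasmid replicate 1 or 2 or empty vector replicate 1, 2 or 3 (adjusted p from 0.0780 to 0.213 for Kif5a and from 0.0645 to 0.169 for Klc1). In those 5 fits limma called 0 to 12 of the 45101 probe sets, with 2309 to 4247 at an unadjusted p under 0.05, and it called 352 without plasmid replicate 3. Without the replicate 1 arrays of both groups the values were 0.98 and 1.01 and neither passed, with 0 calls over all probe sets (3732 at an unadjusted p under 0.05). With the array set, narrow or wide, as a block, both passed (adjusted p = 0.00558 each) as 2 of 18, against 1.13% of all probe sets.

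Whether paralogs responded differently was tested on the difference between the brightest probe sets of 2 genes on each array, for 4 pairs. Kif5a minus Kif5b was -0.58, -0.74 and -0.79 in plasmid arrays, against -1.89, -1.96 and -1.99 in empty vector arrays, so the difference was 1.24 larger with the plasmid. Within a group that difference varied by at most 0.20, although Kif5a and Kif5b each varied by 0.28 to 0.52. Klc1 minus Klc4 was 2.0, 2.36 and 2.33 in plasmid arrays and 1.10, 1.28 and 1.50 in empty vector arrays, which is 0.93 larger with the plasmid. Kif5c minus Kif5b was 0.73 larger with the plasmid, and Kif5a minus Kif5c 0.52 larger. These sizes depended on the probe set taken: with the mean of all probe sets of each gene they were 0.75 for Kif5a minus Kif5b, 0.29 for Klc1 minus Klc4, 0.55 for Kif5c minus Kif5b and 0.19 for Kif5a minus Kif5c. In each of the 4 pairs of brightest probe sets the groups did not overlap. The exact permutation test, two-sided, gave p = 0.1 for each (adjusted p = 0.1 over the 4 pairs), the smallest that 3 arrays against 3 allow. The pairs of heavy chains share probe sets, so they are not independent of each other.

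**Figure D3:**
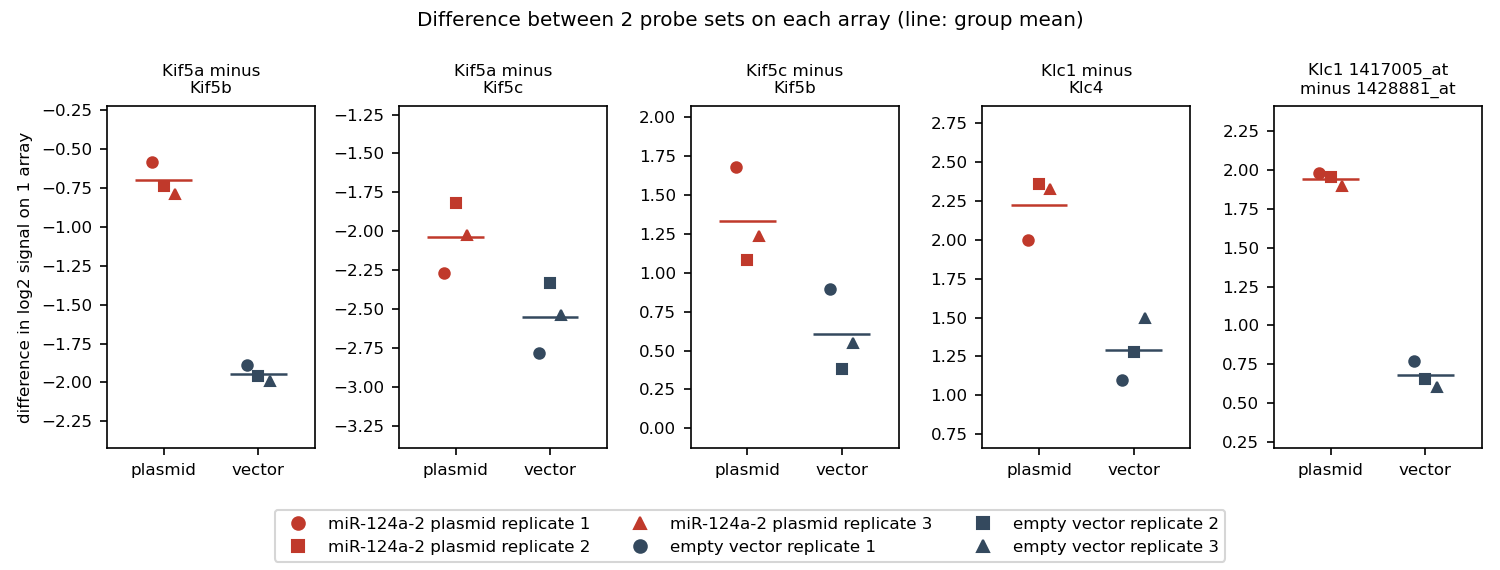
Each panel plots the difference in log2 signal between 2 probe sets on the same array, for the brightest probe sets of 4 pairs of paralogs and for 2 probe sets of Klc1, with miR-124a-2 plasmid arrays (red) left of empty vector arrays (blue) and lines for group means. The height of a difference depends on the probes and has no meaning of its own. The groups are apart in the 4 panels of paralogs, by 1.24 in the mean for Kif5a minus Kif5b. The 2 Klc1 probe sets were taken as the highest and lowest fold change of the gene. Their panel, with means 1.26 apart, is therefore a description only.

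In many kinesin-1 probe sets the replicate 1 arrays were low. The replicate 1 array was the lowest of its group in both groups in 12 of the 18, against 15.5% of all probe sets, dim ones included. Among the 12 were all 3 of Klc1 and 4 of the 6 of Kif5b. Probe sets of the same gene or source record are not separate measurements. The pattern was present in 0 of the 2 of Klc4. This pattern was noticed after the values were seen and is given as a description. The replicate 1 arrays are those with the high 3′ over 5′ control ratios given above, and both are narrow arrays. The part of either in the pattern was not tested.

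Promoter sequence was held in RefSeq's table (GRCm38.p6) for 3 of the 6 genes, Klc1, Kif5c and Klc4. Without a block, 1 probe set of Klc1 rose, and none of Kif5c or Klc4 passed. The sequences are shown to set a light chain gene with a call beside a heavy and a light chain gene without one. Each line holds the 250 bases before the 1 transcript start that the table uses for the gene, 5′ to 3′ on the gene's strand, and capitals mark TGACGTCA, the palindromic cyclic AMP response element. The windows are chr12:111758618-111758867 on the plus strand for Klc1, chr2:49619036-49619285 on the plus strand for Kif5c and chr17:46646081-46646330 on the minus strand for Klc4. The Kif5c window ends at the outer bound of the gene, whereas all 250 bases of the Klc1 window and 109 of the Klc4 window lie inside the span that RefSeq gives to the gene over all its transcripts.
Klc1: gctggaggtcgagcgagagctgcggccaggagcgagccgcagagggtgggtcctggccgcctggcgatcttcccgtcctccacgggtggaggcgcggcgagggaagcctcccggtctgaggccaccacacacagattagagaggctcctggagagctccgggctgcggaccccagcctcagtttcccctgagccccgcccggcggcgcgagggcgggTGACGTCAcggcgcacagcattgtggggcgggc
Kif5c: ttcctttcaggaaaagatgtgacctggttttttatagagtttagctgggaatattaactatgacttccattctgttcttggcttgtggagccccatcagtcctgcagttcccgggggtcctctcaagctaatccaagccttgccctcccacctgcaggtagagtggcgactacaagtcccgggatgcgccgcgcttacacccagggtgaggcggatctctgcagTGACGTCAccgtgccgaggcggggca
Klc4: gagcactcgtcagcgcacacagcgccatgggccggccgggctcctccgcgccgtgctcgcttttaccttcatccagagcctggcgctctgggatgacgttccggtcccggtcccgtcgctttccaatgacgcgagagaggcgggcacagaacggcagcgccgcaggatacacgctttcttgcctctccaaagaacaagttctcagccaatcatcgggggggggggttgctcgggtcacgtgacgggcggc

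Klc1 and Kif5c held TGACGTCA once each and Klc4 did not, and it occurs in 1.55% of the 32851 windows of the same length in the table. This motif was picked after the sequences were seen, so the share over all windows is no test here. Only the full motif was searched, and partial matches were not counted in any of the windows. The GC box GGGCGG, searched on both strands, occurred 3 times in Klc1, 0 times in Kif5c and once in Klc4, and in 32.7% of all windows. The CCAAT box, also on both strands, occurred in Klc4 alone of the 3, and in 33.8% of all windows. The bases G and C made up 72.4% of the Klc1, 55.2% of the Kif5c and 65.6% of the Klc4 window. A match of letters is a description, and no binding was measured.

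Genes that work with kinesin-1, or beside it, were counted from lists by role, with 1 probe set a gene (the brightest) and p-values adjusted over 18195 genes. In that fit Kif5a and Klc1 passed, against 0.209% of all genes called higher, and Kif5b, Kif5c and Klc4 did not. With the mean of all probe sets of a gene in its place, Kif5a had 0.53 (adjusted p = 0.0684) and Klc1 0.44 (adjusted p = 0.261), and neither passed. Of 24 measured cargo adaptors and regulators of kinesin-1, 0 passed in limma, with 8 at an unadjusted p under 0.05, each higher (5.13% of all genes were higher at that level). Their median log2 fold change was 0.20, against 0.02 over all genes, and 21 of 24 means were higher with the plasmid, as were 54.2% of all genes. Among the 8 at the unadjusted level, probe sets of the opposite sign were 3 of 4 for Zfyve27, 2 of 4 for App and 1 of 4 for Kidins220. The adaptor gene Mapk8ip2, whose product JIP2 is a scaffold for JNK signalling that binds light chains, had 8.71, 8.38 and 8.45 in plasmid arrays and 8.03, 7.87 and 7.99 in empty vector arrays (log2 fold change 0.54, SE 0.12, adjusted p = 0.0789). Fez1, which encodes an adaptor of axonal transport, had 0.33 (adjusted p = 0.261). Klc3, a light chain gene that is counted in this list and is not among the 6 studied, had -0.06 (SE 0.14).

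Other motors were counted by role. Of 13 genes of other kinesins of axonal transport, 0 passed, and the median was 0.29. They include Kifap3, which encodes a kinesin-associated subunit that is not a motor. At an unadjusted p under 0.05 were 5, Kifap3 among them, 4 higher and 1 lower (10.9% of all genes in either direction). The kinesin-2 gene Kif3c had 0.50 (SE 0.10, adjusted p = 0.0714), and Kif21a had 0.38 (SE 0.21, adjusted p = 0.590), although 2 of its 3 probe sets had the opposite sign. Among the 5 at the unadjusted level, Kif1b had 3 of 7 and Kif13b 3 of 4 probe sets of the opposite sign. Of 14 kinesins of mitosis, 0 passed, with 10 at an unadjusted p under 0.05, each lower (5.79% of all genes were lower at that level), and the median was -0.41. Kif18b, a kinesin that controls microtubule length in the spindle, had -0.74 (SE 0.22, adjusted p = 0.208), and Kif20b, a kinesin of cytokinesis, had -0.72 (SE 0.29, adjusted p = 0.400). Cytoplasmic dynein 1 with dynactin is the motor complex that moves toward the minus end. Of 20 measured genes of its subunits, adaptors and regulators, 0 passed, and the median was 0.11. At an unadjusted p under 0.05 were 2, Dynlt3 higher and Nde1 lower, a share near that of all genes (10.9%). Means were higher with the plasmid in 13 of the 20, and in 54.2% of all genes. The largest changes were in the dynein adaptor gene Bicd2, with -0.37 (adjusted p = 0.470), and Nde1, a dynein regulator, with -0.32 (adjusted p = 0.255). Differences between these lists were not tested.

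**Figure D4:**
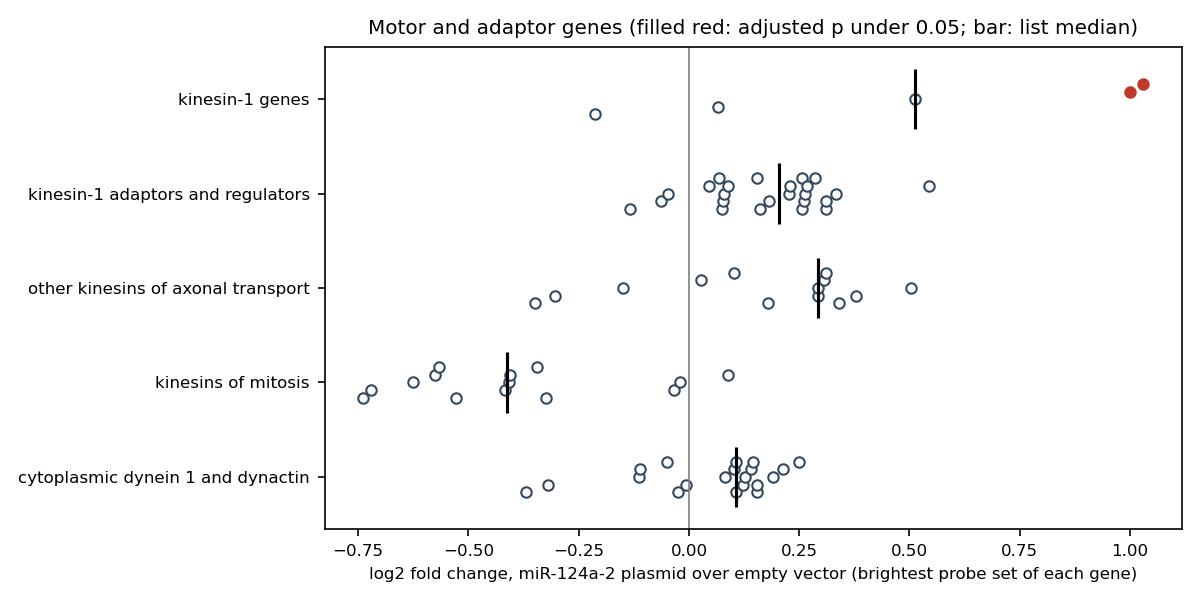
Points give the log2 fold change (horizontal axis, miR-124a-2 plasmid over empty vector) of the brightest probe set of each gene, by list, and black bars the list medians. In the kinesin-1 row Kif5a and Klc1 are filled red (adjusted p under 0.05). No other list holds a filled point, and their medians are 0.20, 0.29, -0.41 and 0.11 from top to bottom.

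The genes whose pattern over the 6 arrays was most like those of Kif5a 1434670_at and Klc1 1417005_at were found by the root mean square difference of log2 signals, each centred on its own mean. For Kif5a these were Sostdc1 (0.10), which encodes a secreted inhibitor of BMP signalling, Gabbr1 (0.11), which encodes a GABA-B receptor subunit, and Clcn6 (0.12), a gene of the CLC chloride channel and transporter family. The median over all genes was 0.56. For Klc1 they were Gabbr1 (0.09), Sostdc1 (0.10) and the tetraspanin gene Tspan17 (0.11), against a median of 0.52. Clcn6 had 8.35, 8.64 and 8.88 in plasmid arrays and 7.28, 7.89 and 7.95 in empty vector arrays, a log2 fold change of 0.92 that did not pass (adjusted p = 0.0832). Sostdc1, Gabbr1 and Tspan17 were called higher by limma in the fit by gene (adjusted p = 0.00978, 0.0121 and 0.0219). Their plasmid means lay 1.06, 1.10 and 0.79 log2 units above those of the empty vector. Of the 4 probe sets of Gabbr1, 1 had the opposite sign.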

How the data were processed

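Total RNA from 6 samples was labelled with biotin and hybridised to Affymetrix arrays (labels' protocols). What the authors deposited are log2 signals from RMA, which is named in the submitters' processing notes; version, probe definition and filters are not given in the sources used here. The 6 columns held no missing value and were used as deposited. Genes came from the platform annotation of 2016: 34958 probe sets had 1 gene, 932 several and 9211 none, and the symbols of the members matched RefSeq through their Entrez IDs. Each probe set was compared with limma 3.58.1 in R 4.3.3 (lmFit, then eBayes; two-sided; without a block), with adjustment over 45101 probe sets, no filter on dim ones, and a threshold of 0.05. Errors of fold changes are limma's standard errors. The model was tested on simulated data. A second fit took the brightest probe set of each of 18195 genes. Differences between paralogs were tested by exact permutation over the 20 splits of the arrays. Arrays give no read depth, so the number of arrays limits precision.

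Members, lists, tests and alternatives were chosen with earlier results of these data known. Named are all members, Ptbp1, list members past the threshold or else the 2 with the largest change, and the 3 genes most like Kif5a and Klc1. Klc3, a member of the adaptor list, was named after its value was seen.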

Additional observations from a re-analysis of the deposited data

How the results depend on the processing

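The count over all probe sets moved with most settings. It was 121 as reported, 673 with the replicate number as a block, 509 with the array set as a block, 39 with median centring, 262 with quantile normalization, 244 with cyclic loess, 215 with an intensity trend, 229 with robust estimation added, 0 without the replicate 1 arrays and 0 at an adjusted p under 0.01, and it ranged from 0 to 352 when single arrays were left out. The causes were not tested, apart from the fewer arrays or stricter threshold that some settings set. Of the kinesin-1 probe sets 2 were called as reported. It was 1 with median centring (Klc1 1417005_at, Kif5a 1434670_at having 1.03 at an adjusted p = 0.0783), 0 without the replicate 1 arrays, 0 at an adjusted p under 0.01, and 0 to 2 with single arrays left out.

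The numbers are not taken to pair the samples in the main fit. Over probe sets, the deviations from the group means of same-numbered arrays correlated at 0.58, 0.03 and 0.56 for replicates 1, 2 and 3. By that measure plasmid replicate 2 correlated better with empty vector replicate 1 (0.09). By the signals themselves, each plasmid array correlated best with the empty vector array of its own number (0.9938, 0.9893 and 0.9950). Arrays of unlike number had 0.9879 to 0.9944, so these values do not settle the pairing. With the replicate block 5 kinesin-1 probe sets were called, the further ones being Kif5a 1450249_s_at, Kif5c 1455266_at and Klc1 1448541_at (adjusted p = 0.0496, 0.0457 and 0.0319), against 1.49% of all probe sets.

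By gene, 165 were called as reported, 51 when the probe set that varied most stood for its gene, and 457 with the replicate block. With the mean of probe sets Kif5a had 0.53 and Klc1 0.44 and neither passed (adjusted p = 0.0684 and 0.261). The replicate block called 1 of 24 adaptors (Mapk8ip2) and 1 of 13 genes of other axonal kinesins (Kif3c). It also called 2 of 14 kinesins of mitosis (Kif4 and Kif18b). It called 0 of 20 genes of dynein, dynactin and their adaptors and regulators, and 457 of all 18195 genes. Without the block, 0 members of these lists were called. Kif5b 1418430_at changed sign with the array set as a block (0.026), and dim Kif5a 1427635_at without the replicate 1 arrays (-0.099). With single arrays left out these 2 ranged from -0.33 to 0.044 and from -0.031 to 0.12, and dim Kif5b 1453524_at from -0.21 to 0.037. The 4 differences between paralogs were rerun with the mean of probe sets, the replicate block and single arrays left out, and kept their direction. The replicate block cannot change their size in this balanced design, and the other settings were not run for them. With the mean of probe sets 3 of them were much smaller (0.75 for Kif5a minus Kif5b, 0.19 for Kif5a minus Kif5c and 0.29 for Klc1 minus Klc4).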
